A study of Homo sapiens with 42 samples.

Results

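The 45 genes described here act in G2 phase and mitosis, and were taken from the 29320 genes with estimated reads by a list of symbols. They were grouped by role into the mitotic cyclins with CDK1 and the CDC25 phosphatases, mitotic kinases, checkpoint proteins with the anaphase-promoting complex (APC/C) and securin, motors and other spindle proteins, centromere and chromosomal passenger proteins, chromosome structure proteins, cytokinesis proteins, and 1 transcription factor, FOXM1. All 45 passed the filter on low counts in every comparison.

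Polyadenylated RNA was sequenced from human cells in which RNA polymerase III (Pol III), the enzyme that makes tRNAs, 5S rRNA and other small RNAs, was targeted in different ways. HEK293T is a human embryonic kidney line carrying the SV40 large T antigen, which binds p53 and the RB family of proteins, and THP-1 is a monocytic leukemia line. The series held 42 libraries in 14 groups of 3, compared within 5 sets. In HEK293T, an antisense oligonucleotide (ASO) against the Pol III subunit POLR3G was set against a scrambled ASO, each at 200 nM for 48 h. A POLR3G siRNA was set against a control siRNA, each also at 200 nM for 48 h. In another experiment, 3 siRNAs against the paralogous subunit POLR3GL, named siE4, siE6 and siE8, were set against 1 control siRNA group at 25 nM for 48 h. Overexpression of MAF1, a repressor of Pol III, was set against overexpression of eGFP at 48 h. Lipofectamine RNAiMax carried the oligonucleotides into the cells, and another Lipofectamine reagent was used for overexpression. In THP-1, the Pol III inhibitor ML-60218 was given at 25 uM for 4 h, the translation inhibitor cycloheximide (CHX) at 10 ug/ml for 4.5 h, or both, against DMSO. The sequences of the ASOs and siRNAs were not used here, and the labels do not say whether libraries of a group came from separate cultures, so a p-value measures only the spread between these libraries.

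As background, transcripts of mitotic genes accumulate in G2 and are low in G1. In resting and G1 cells the DREAM complex, which contains the MuvB core, represses their promoters through a cell cycle genes homology region (CHR) that often lies downstream of CCAAT boxes bound by NF-Y. In G2 the MuvB core acts instead with B-MYB and FOXM1 to activate them. In bulk RNA a lower level can mean fewer cells in G2 and mitosis or less RNA per cell, and these cannot be told apart here.

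Depth ranged from 3.27e+07 to 5.26e+07 estimated reads per library. POLR3G RNA was 2.81-fold lower with its ASO and 2.38-fold lower with its siRNA, POLR3GL RNA was 11.8-fold, 10.2-fold and 13.1-fold lower with siE4, siE6 and siE8, and MAF1 RNA was 74.7-fold higher with its construct. Other Pol III genes moved too: MAF1 was 5.07-fold lower with the POLR3G siRNA, POLR3G was 1.80-fold, 1.48-fold and 1.91-fold lower with siE4, siE6 and siE8, and POLR3GL was 1.36-fold lower with the POLR3G ASO and 1.49-fold lower with the POLR3G siRNA. MAF1 was 1.13-fold lower with siE4 and 1.38-fold lower with CHX, and POLR3GL was 1.11-fold lower with ML-60218 and 1.14-fold higher with CHX. Of 10 monocytic markers, 10 reached 1 TPM (a level per transcript length, scaled to the library) in THP-1 and 2 in HEK293T, and of 6 epithelial and kidney line markers, 6 did in HEK293T and 2 in THP-1.

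Promoter sequences were printed for 5 members because they show the motifs through which the cell cycle control of this gene set is known to run. They are RefSeq promoter windows of build GRCh38.p14, from 250 bases before to 50 bases after the gene's start, written 5′ to 3′ on the gene's strand. Capitals mark the CHR letters TTTGAA or TTCGAA and the CCAAT box letters CCAAT, each on either strand, so that on the opposite strand TTTGAA reads TTCAAA and the CCAAT box reads ATTGG. Where 2 matches overlap they form 1 run of capitals. INCENP, at chr11:62123761-62124060 (+), encodes the scaffold of the chromosomal passenger complex. HMMR, at chr5:163460382-163460681 (+), encodes a spindle-associated hyaluronan receptor. BUB1, at chr2:110678014-110678313 (-), encodes a checkpoint kinase of the kinetochore. TOP2A, at chr17:40417847-40418146 (-), encodes the topoisomerase that untangles sister DNAs. KIF20A, at chr5:138178862-138179161 (+), encodes a kinesin of the spindle midzone and is shown as a member with no CHR match.
INCENP: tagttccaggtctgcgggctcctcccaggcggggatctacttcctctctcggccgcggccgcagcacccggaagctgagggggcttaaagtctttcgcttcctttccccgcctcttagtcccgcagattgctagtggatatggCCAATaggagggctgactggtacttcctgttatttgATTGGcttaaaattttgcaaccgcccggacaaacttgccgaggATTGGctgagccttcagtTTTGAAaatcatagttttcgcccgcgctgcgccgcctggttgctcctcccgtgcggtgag
HMMR: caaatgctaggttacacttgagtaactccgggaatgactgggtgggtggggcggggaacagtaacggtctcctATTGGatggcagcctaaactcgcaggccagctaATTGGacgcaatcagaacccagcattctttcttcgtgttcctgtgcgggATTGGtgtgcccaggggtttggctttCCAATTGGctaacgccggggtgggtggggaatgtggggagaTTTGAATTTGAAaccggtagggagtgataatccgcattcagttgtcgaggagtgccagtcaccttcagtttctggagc
BUB1: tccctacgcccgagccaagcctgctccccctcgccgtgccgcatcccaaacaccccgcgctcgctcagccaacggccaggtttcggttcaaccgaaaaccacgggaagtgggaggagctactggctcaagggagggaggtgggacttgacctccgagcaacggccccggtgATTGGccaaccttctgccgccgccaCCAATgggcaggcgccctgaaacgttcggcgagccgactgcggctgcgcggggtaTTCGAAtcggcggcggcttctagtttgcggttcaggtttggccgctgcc
TOP2A: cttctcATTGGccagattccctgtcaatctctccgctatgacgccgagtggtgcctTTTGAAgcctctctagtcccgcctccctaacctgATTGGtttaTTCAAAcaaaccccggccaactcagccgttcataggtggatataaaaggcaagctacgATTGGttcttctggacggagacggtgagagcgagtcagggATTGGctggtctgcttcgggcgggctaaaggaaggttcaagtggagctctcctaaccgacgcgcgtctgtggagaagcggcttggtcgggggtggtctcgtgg
KIF20A: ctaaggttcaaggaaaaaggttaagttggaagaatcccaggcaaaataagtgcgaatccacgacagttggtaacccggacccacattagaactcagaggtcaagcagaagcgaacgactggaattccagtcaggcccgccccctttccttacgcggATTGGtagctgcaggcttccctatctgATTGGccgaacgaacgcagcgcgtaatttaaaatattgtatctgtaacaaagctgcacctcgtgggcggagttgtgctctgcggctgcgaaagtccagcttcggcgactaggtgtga

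In INCENP the CHR match began at position -10 relative to the start site of its window, downstream of CCAAT matches at -107, -71 and -28. In BUB1 the CHR match lay at position 2, with CCAAT matches at -79 and -54. HMMR held 2 adjoining CHR matches and 5 CCAAT matches, of which a pair on opposite strands overlap. BUB1 held 1 CHR match and 2 CCAAT matches, TOP2A held 2 and 4, and KIF20A held 0 and 2. In TOP2A the order differed: CHR matches at -194 and -151 lay upstream of CCAAT matches at -93 and -53. Its other CCAAT matches were at -244 and -160. The order of the motifs was not counted over the members. Of the 45 members, 37 had a window among the 35116 in the RefSeq table, and AURKA, TTK, BUB3, UBE2C, TPX2, BIRC5, HMGB2 and FOXM1 had none. For each member the first window listed was read. CHR letters were present in 26 of the 37 (70.3%), against 16.4% of all windows. CCAAT letters were present in 28 (75.7%), against 34.6% of all windows. Both were present in 22 (59.5%), against 6.38% of all windows, and 18 members (48.6%) held at least 2 CCAAT matches, against 10.8%. These are matches of letters in a window and were not measured as bound sites.

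All 45 members were expressed in both lines. Mean levels in the 12 HEK293T control libraries ran from 22.2 TPM for CENPE, a kinetochore motor, to 272.5 TPM for HMGB2, a chromatin protein. In THP-1 with DMSO they ran from 5.66 TPM for CDC25B, a phosphatase that activates CDK1, to 516.5 TPM for HMGB2. The level was higher in HEK293T for 42 members, with a median ratio of 1.87. The ratio was not taken over all genes, so it is not shown to be particular to these members. The widest ratios were 6.37 for AURKB, the kinase of the chromosomal passenger complex, and 6.07 for CDC25B. CDC20, the APC/C activator, went the other way, at 85.8 TPM in HEK293T and 341 TPM in THP-1. HMGB2 did so too, and KIF2C, a microtubule depolymerase, was at 47.6 and 51.8 TPM, within the range of 39.3 to 55.4 TPM over the HEK293T control libraries. AURKA, at 72.1 TPM in THP-1, also lay within its HEK293T range of 71.5 to 116.4 TPM. The lines were handled in different experiments, so line and experiment cannot be told apart in these ratios.

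**Figure D1:**
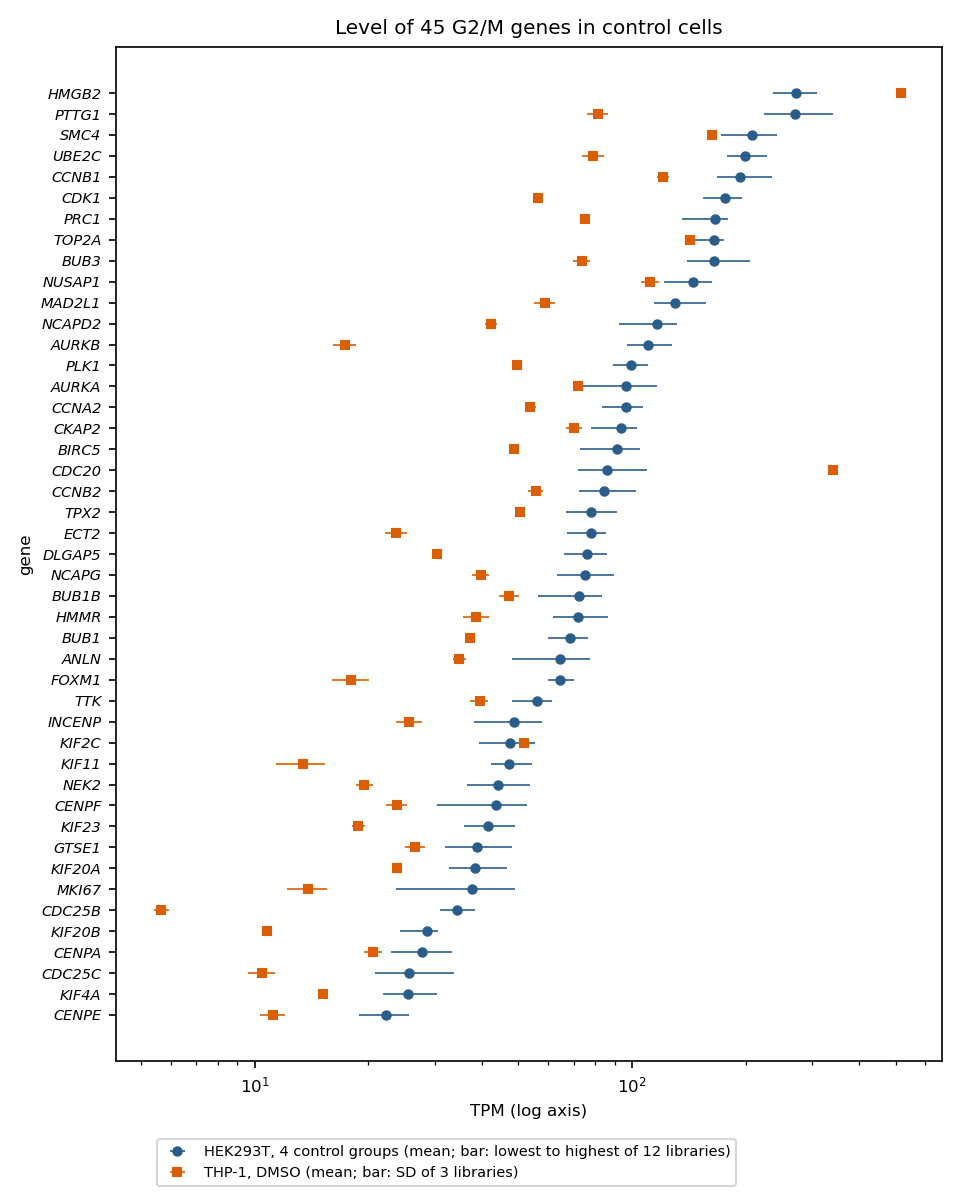
Mean level of each of the 45 members (1 row per gene) in TPM on a log axis, with circles for the 12 HEK293T control libraries and a bar from the lowest to the highest of them, and squares for the 3 THP-1 DMSO libraries with a bar of the SD. CDC20, HMGB2 and KIF2C have the square to the right of the circle and the other 42 members have it to the left.

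Below, levels within a set of groups are TMM-normalised CPM (counts scaled to library size), and differences are log2 fold changes with their SE. A member was called higher or lower where edgeR's quasi-likelihood test gave a Benjamini-Hochberg adjusted p-value, taken over every gene tested in that fit, under 0.05, and the share of all genes called in the same direction is given beside the first count of each comparison. The counts for role groups within that comparison have the same shares over all genes. Counts of members below a control mean, at an unadjusted p, by DESeq2 or with other settings are given for the members alone. Their shares over all genes were not taken.

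**Figure D2:**
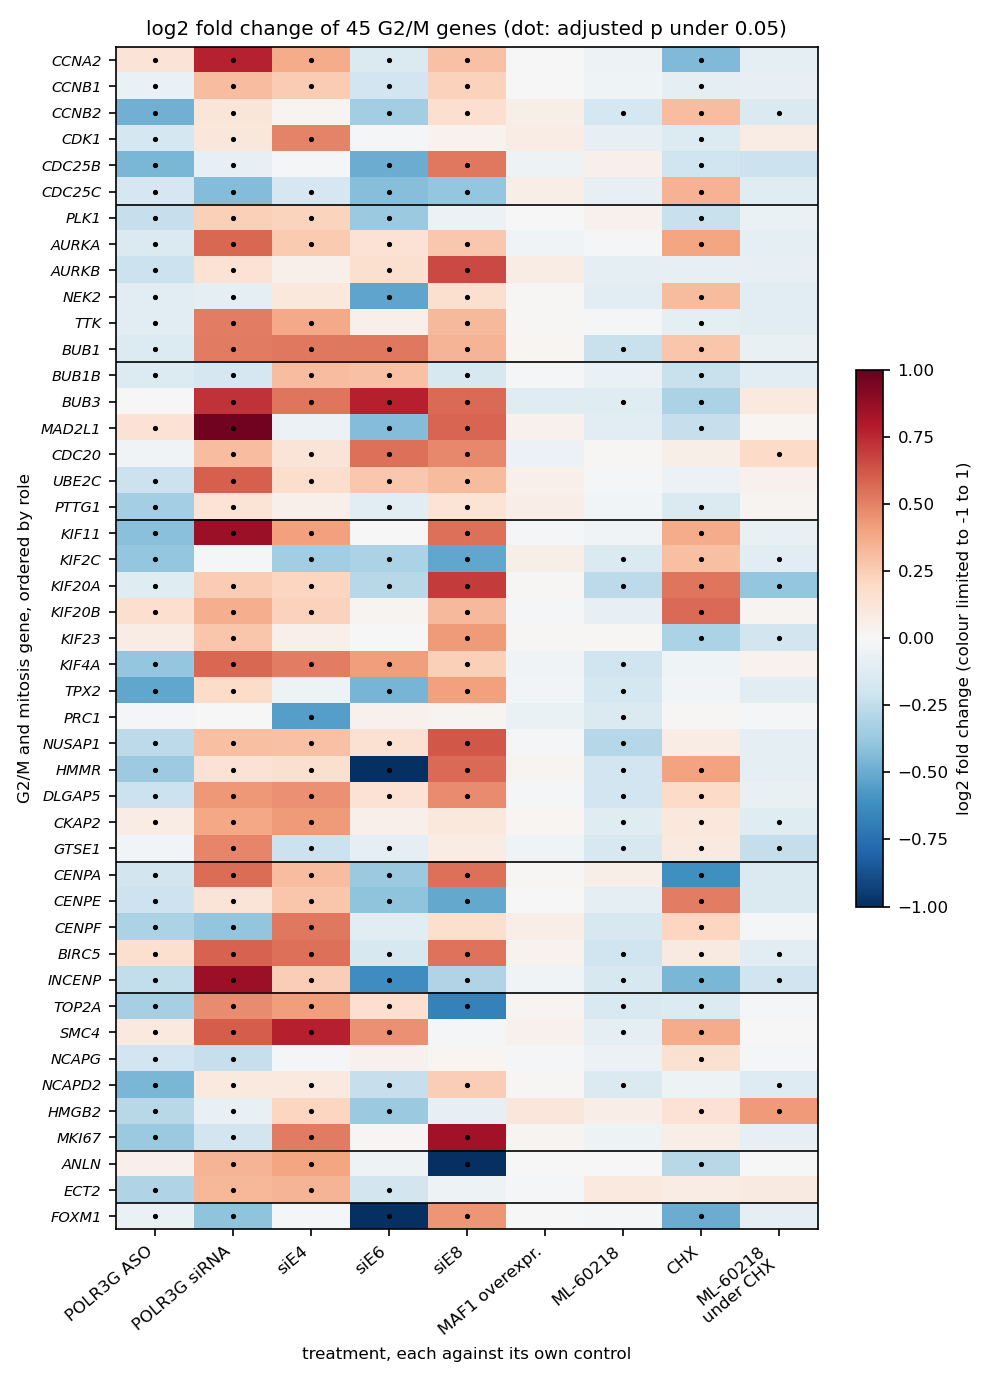
Log2 fold change of the 45 members, grouped by role, in 9 treatments, each against its own control, with a dot where the adjusted p is under 0.05 and colours limited to -1 to 1. The POLR3G ASO column is mostly negative, the POLR3G siRNA, siE4 and siE8 columns are mostly positive, siE6 is mixed, and the MAF1 column is near 0 throughout.

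With the POLR3G ASO most of the mitotic genes fell slightly in CPM. Of the 45 members, 33 were called lower and 6 higher, where the shares over the 17098 genes tested were 34.1% lower and 34.4% higher. The members' median log2 fold change was -0.18, against -0.0033 over all genes tested. In each of the 3 ASO libraries 36 members lay below the mean of the scrambled ASO libraries, a count not taken over all genes. All 6 mitotic kinases were called lower in CPM, as were 5 of the 6 genes of the cyclin and CDC25 group. Also lower were 5 of 6 of chromosome structure and 4 of 5 of the centromere and passenger group. In the motors and spindle group 8 of 13 were lower. Scaling by library totals, a filter at a mean of 5 CPM and counting of protein-coding transcripts alone each gave 23 lower and 9 higher, or 28.1% of the called members higher in place of 15.4%. TPM has no TMM step and also divides by transcript length. On that scale the summed level of the 45 members was 3957 ± 15.2 (SD, n = 3) with the ASO and 3909 ± 46.6 with the scrambled ASO. Among the members called lower in CPM, CCNB1, NEK2, TTK, BUB1, BUB1B, KIF20A, CENPE, INCENP, ECT2 and FOXM1 had higher mean TPM with the ASO. Some of these rises were smaller than the SD. The members called higher and those not called all had higher mean TPM too, so the fall of most members did not hold on this scale. BUB1 went from 61.8 ± 1.9 with the scrambled ASO to 74.0 ± 2.3 TPM, and ECT2 from 71.1 ± 3.3 to 81.4 ± 2.4 TPM. TPX2 fell in TPM too, from 67.9 ± 1.4 to 52.5 ± 0.62.

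TPX2, which activates Aurora A on the spindle, moved furthest down. It was at 234, 234 and 236 CPM in the 3 scrambled ASO libraries and 164, 163 and 164 CPM in the 3 ASO libraries. Every ASO library lay below every control library, and the log2 fold change was -0.52 ± 0.019 (adjusted p = 9.16e-08). Cyclin B2 (CCNB2), a partner of CDK1, was at 79.8, 77.1 and 78.4 CPM with the scrambled ASO and 54.6, 55.8 and 58.0 CPM with the ASO. It too separated the groups without overlap, at -0.48 ± 0.031 (adjusted p = 1.75e-06). NCAPD2, a condensin subunit, went from 282, 271 and 270.1 CPM to 200.3, 198 and 201 CPM. Its ASO libraries all lay lower, and the change was -0.46 ± 0.023 (adjusted p = 4.72e-07). CDC25B fell by the same order (-0.46 ± 0.042), as did the kinesins KIF11 (-0.42 ± 0.033), which pushes spindle poles apart, and KIF4A (-0.39 ± 0.030), a chromosome-arm motor. KIF4A has a retrocopy, KIF4B, between which reads could be divided.

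Among the members that are often used as proliferation markers, MKI67 changed by -0.37 ± 0.032 and TOP2A by -0.33 ± 0.026 on the log2 scale. PLK1, a kinase of mitotic entry and spindle assembly, changed by -0.23 ± 0.029 and CDK1 itself by -0.17 ± 0.025. CDK1 was at 188, 192 and 190.5 CPM with the scrambled ASO and 164, 174 and 168 CPM with the ASO, without overlap. Its value was -0.096 with scaling by library totals. HMGB2 changed by -0.28 ± 0.021 and ECT2, the exchange factor that starts cleavage furrow formation, by -0.30 ± 0.024. For ECT2 an offset for mean transcript length turned the value to 0.012 with no call (adjusted p over the alternatives 8.45e-18 to 0.797). The call on cyclin B1 (CCNB1) was weak: 205, 202 and 198 CPM became 192, 194 and 194 CPM. The groups were just apart, at -0.064 ± 0.021 (adjusted p = 0.0234). That call was lost with DESeq2, with the length offset, with protein-coding transcripts alone and with all HEK293T libraries in 1 fit, and also without scrambled ASO library 1 or ASO library 1 (adjusted p 0.0154 to 0.0630 over the fits that leave out 1 library), and the value was 0.012 with scaling by totals or the 5 CPM filter. CDC20 was not called (-0.032 ± 0.037, adjusted p = 0.462) and was at 0.045 with both of those settings.

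The 6 members called higher ran the other way. KIF20B, a kinesin of late cytokinesis, was at 182, 184 and 182 CPM with the scrambled ASO and 204, 209.6 and 203 CPM with the ASO. All ASO libraries were higher, at 0.17 ± 0.021 (adjusted p = 8.89e-05). BIRC5 (survivin), a passenger complex subunit, rose by 0.16 ± 0.025, MAD2L1, the checkpoint protein that restrains CDC20, by 0.15 ± 0.025, and cyclin A2 (CCNA2), which acts from S phase to early mitosis, by 0.14 ± 0.025. With scaling by totals MAD2L1 was at 0.22 and CCNA2 at 0.21. SMC4, a condensin ATPase, rose by 0.10 ± 0.022 and CKAP2, a spindle protein, by 0.077 ± 0.021. With no filter on low counts SMC4 was at 0.061 and not called (adjusted p over the alternatives 5.39e-06 to 0.0557). CKAP2 lost its call in that fit, with the length offset, with all HEK293T libraries in 1 fit and without scrambled ASO library 1 (adjusted p over the alternatives 1.52e-04 to 0.275).

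With the POLR3G siRNA most of the same genes were higher. Of the 45 members, 34 were called higher and 9 lower, where the shares over the 15423 genes tested were 36.8% higher and 38.1% lower, and the members' median was 0.30 against -0.020 over all genes. In each of the 3 siRNA libraries 10 members lay below the control mean, a count not taken over all genes. The motors and spindle group had 11 of 13 members higher and none lower, and 5 of 6 kinases and 5 of 6 checkpoint and APC/C genes were higher. Chromosome structure was split, with 3 higher and 3 lower. The summed level was 4752 ± 110.3 TPM with the siRNA and 4184 ± 42.3 TPM with its control. The MAF1 RNA of these cells was also low, as given above, and its part in these changes was not tested.

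MAD2L1 rose most. It was at 137, 136 and 136 CPM in the control siRNA libraries and 266, 265 and 266 CPM in the POLR3G siRNA libraries. No siRNA library came near the controls, a 1.95-fold difference (0.96 ± 0.017, adjusted p = 4.96e-10). KIF11 went from 181, 163 and 174 CPM to 300.1, 323 and 316 CPM. It was also wholly separated, at 0.86 ± 0.041 (adjusted p = 1.18e-07). INCENP was at 84.0, 82.0 and 86.0 CPM and 152, 149 and 155 CPM. That gave 0.86 ± 0.027 with no overlap (adjusted p = 8.02e-09). Cyclin A2 followed at 0.77 ± 0.029, SMC4 at 0.61 ± 0.016, BIRC5 at 0.59 ± 0.021 and UBE2C, the ubiquitin-conjugating enzyme of the APC/C, at 0.59 ± 0.022. BUB3, a checkpoint protein that brings BUB1 to kinetochores, was at 0.72 ± 0.038, and at 0.22 with an offset for mean transcript length.

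The core mitotic regulators rose by smaller amounts. Cyclin B1 was at 162, 158 and 161 CPM with the control and 198, 201 and 196 CPM with the siRNA. Its groups were apart, at 0.31 ± 0.019 (adjusted p = 6.58e-07). PLK1 was higher by 0.24 ± 0.026, CDC20 by 0.31 ± 0.031 and TOP2A by 0.47 ± 0.015. Scaling by totals gave 0.20 for cyclin B1, 0.13 for PLK1 and 0.20 for CDC20. CDK1 was called at 0.11 ± 0.022, but with scaling by library totals it was at 0.0019 and not called (adjusted p over the alternatives 2.17e-05 to 0.938).

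The members that fell with the siRNA included the transcription factor of the set. FOXM1 was at 138, 135 and 139 CPM with the control and 101, 108 and 101 CPM with the siRNA. All siRNA libraries were lower, at -0.40 ± 0.030 (adjusted p = 2.16e-06). CDC25C, the phosphatase of mitotic entry, went from 32.4, 34.6 and 34.9 CPM to 24.7, 25.6 and 25.3 CPM. It fell without overlap, at -0.43 ± 0.039 (adjusted p = 8.71e-06). CENPF, a kinetochore protein, changed by -0.39 ± 0.036 (-0.25 with the length offset), the condensin subunit NCAPG by -0.23 ± 0.019, the checkpoint kinase BUB1B by -0.17 ± 0.022 and MKI67 by -0.18 ± 0.029. MKI67 was not called with all HEK293T libraries in 1 fit (adjusted p over the alternatives 1.71e-08 to 0.0530).

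The ASO and the siRNA shared no control libraries, so their members could be counted against each other. Of the 33 members lower with the ASO, 23 were higher with the siRNA (of 34 higher in all), 9 were lower and 1, KIF2C, was not called. The 9 lower with both were BUB1B, CDC25B, CDC25C, CENPF, FOXM1, HMGB2, MKI67, NCAPG and NEK2, which are also all 9 of those lower with the siRNA. The 6 higher with the ASO (BIRC5, CCNA2, CKAP2, KIF20B, MAD2L1 and SMC4) were 6 of the 34 higher with the siRNA. ANLN, BUB3, CDC20, GTSE1 and KIF23 were called with the siRNA and not with the ASO, and the midzone bundler PRC1 with neither. Most members were higher with the siRNA whatever their call with the ASO, so the 23 alone do not show opposition gene by gene. The same pairs of calls were not counted over all genes, and a link between the calls was not tested.

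The difference itself was tested in 1 fit over the 12 libraries, as the ASO effect minus the siRNA effect. It was lower than 0 for 38 of the 45 members and higher for 2, where 33% of 17489 genes were called lower and 33.8% higher. The members' median difference was -0.50, against 0.077 over all genes. KIF11 differed most, at -1.30 ± 0.059 (adjusted p = 4.68e-10), then INCENP at -1.14 ± 0.043 and KIF4A at -0.99 ± 0.042. MAD2L1, TOP2A and UBE2C each lay near -0.84, and TPX2 was at -0.73 ± 0.027. The difference was -0.40 for cyclin B1, -0.31 for CDK1, -0.50 for PLK1, -0.37 for CDC20 and -0.22 for MKI67, and with scaling by totals -0.18, -0.098, -0.28, -0.16 and -0.0040, the last not called. The 2 above 0 were FOXM1 (0.31 ± 0.042) and CDC25C (0.23 ± 0.070, adjusted p = 0.00961). CDC25C was not called with the length offset (adjusted p over the alternatives 8.28e-05 to 0.138). Scaling by totals gave 34 lower and 7 higher, or 17.1% of the called members higher in place of 5%. The kind of oligonucleotide and the experiment changed together and cannot be told apart in this difference.

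**Figure D3:**
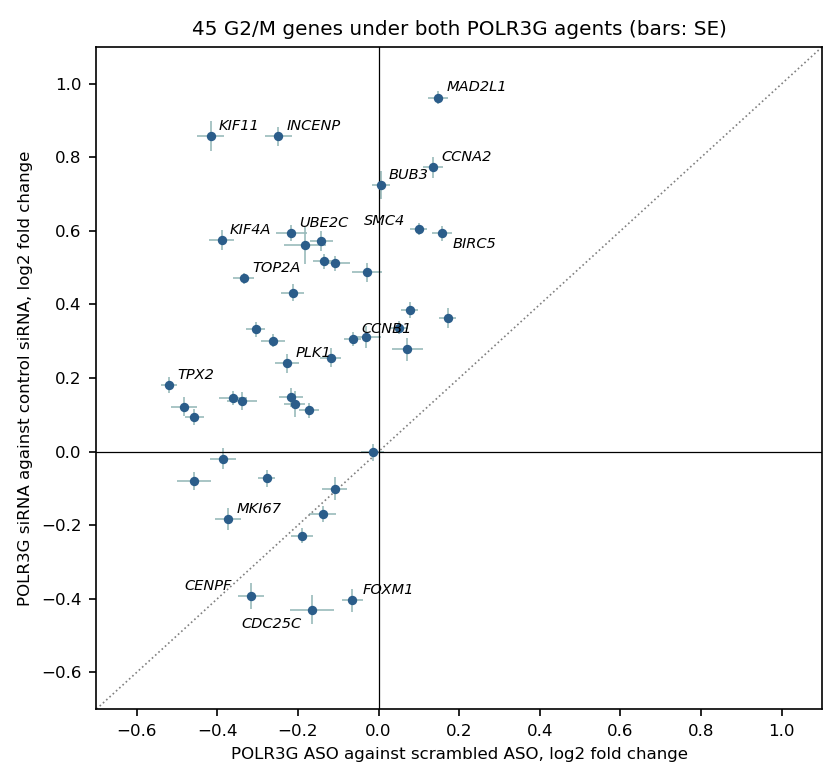
Log2 fold change of each of the 45 members with the POLR3G ASO (x axis) against the POLR3G siRNA (y axis), each relative to its own control, with SE bars and a dotted line of equal change. Most points lie at the upper left, lower with the ASO and higher with the siRNA, with KIF11 at -0.42 and 0.86.

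The 3 POLR3GL siRNAs shared 1 control group and were fitted together, so their values are set side by side and their differences were tested directly. Control library 1 stood somewhat low for these genes, with 36 of 45 members below the mean of the 3 control libraries, and control library 3 somewhat high, with 5 below. Summed levels were 4334 ± 126.3 TPM in the control, 4470 ± 59.8 TPM with siE4, 3706 ± 195 TPM with siE6 and 4852 ± 68.6 TPM with siE8.

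With siE4 the members mostly rose. Of the 45, 31 were called higher and 4 lower, where 26.2% of the 15573 genes tested were higher and 28.7% lower, and the members' median was 0.24 against -0.021 over all genes. Scaling by totals gave 26 higher and 8 lower, or 76.5% of the called members higher in place of 88.6%. All 5 genes of the centromere and passenger group rose, as did 5 of the 6 of chromosome structure. SMC4 was at 468, 432 and 479.6 CPM in the control and 787, 788 and 791 CPM with siE4. Its groups lay far apart, at 0.78 ± 0.043 (adjusted p = 9.95e-09). BIRC5 rose by 0.55 ± 0.047, CENPF by 0.53 ± 0.078, BUB1 by 0.53 ± 0.042, KIF4A by 0.51 ± 0.043, MKI67 by 0.52 ± 0.11 and CDK1 by 0.50 ± 0.044. TOP2A rose by 0.42 ± 0.044, cyclin B1 by 0.26 ± 0.048 and PLK1 by 0.22 ± 0.046, the last 2 at 0.16 and 0.13 with scaling by totals. BUB3 rose by 0.54 ± 0.035, and by 0.86 with the length offset. CDC20 was called at 0.13 ± 0.044, and the call was lost without control library 1 or siE4 library 1 and with scaling by totals (adjusted p over the alternatives 0.00736 to 0.422).

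PRC1, which bundles midzone microtubules, was the largest fall with siE4. It was at 266, 282 and 283 CPM in the control and 192, 189.9 and 187 CPM with siE4. Every siE4 library was lower, at -0.55 ± 0.036 (adjusted p = 4.87e-08). KIF2C changed by -0.35 ± 0.039 and GTSE1, a microtubule-associated protein of G2, by -0.22 ± 0.037. CDC25C was called lower at -0.17 ± 0.056, with 37.1, 41.9 and 43.0 CPM in the control and 35.9, 37.6 and 34.9 CPM with siE4. Those groups overlapped, and the call was lost with the length offset and without control library 2, control library 3, siE4 library 1 or siE4 library 3 (adjusted p over the alternatives 0.00113 to 0.0829).

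With siE6 more members fell than rose. Of the 45, 22 were lower and 12 higher, where 31.8% of all genes tested were lower and 31.2% higher, and the median was -0.09 against -0.0018 over all genes. Scaling by totals gave 25 lower and 7 higher, or 21.9% of the called members higher in place of 35.3%. Of the cyclin and CDC25 group 5 of 6 fell and none rose, and of the centromere and passenger group 4 of 5 fell. Checkpoint and APC/C genes went mostly the other way, with 4 of 6 higher.

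FOXM1 had the deepest fall of any member in the 9 comparisons with a control. It was at 132, 140.2 and 143 CPM in the control and 53.0, 47.2 and 50.6 CPM with siE6. This was a 2.76-fold drop without overlap (-1.47 ± 0.048, adjusted p = 8.56e-11). HMMR went from 172, 178 and 182 CPM to 67.5, 64.2 and 66.4 CPM. It was 2.69-fold lower (-1.43 ± 0.043, adjusted p = 4.43e-11). INCENP changed by -0.62 ± 0.048, the centrosomal kinase NEK2 by -0.52 ± 0.055, CDC25B by -0.50 ± 0.042 and TPX2 by -0.47 ± 0.042. PLK1 changed by -0.37 ± 0.046 and cyclin B1 by -0.19 ± 0.048, while CDK1 (-0.013 ± 0.044) and MKI67 (0.014 ± 0.11) were not called. CDK1 was called lower at -0.11 with scaling by totals. MKI67 was below 0 with totals, the 5 CPM filter and the length offset.

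Among the rises with siE6, BUB3 was at 209, 213 and 207 CPM in the control and 365, 358 and 356 CPM with siE6. It did not overlap, at 0.78 ± 0.035 (adjusted p = 9.49e-10). CDC20 rose by 0.55 ± 0.044, BUB1 by 0.53 ± 0.042, SMC4 by 0.46 ± 0.043 and KIF4A by 0.42 ± 0.043. TOP2A was called at 0.17 ± 0.044, but not with scaling by totals (adjusted p over the alternatives 5.13e-05 to 0.195).

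With siE8, 28 members were higher and 7 lower, where 29.1% of all genes tested were higher and 28.6% lower, and the median was 0.25 against -0.0090 over all genes. Motors and spindle genes were higher in 9 of 13 cases and lower in 1, and 5 of 6 kinases were higher. MKI67, a surfactant-like coat of mitotic chromosomes, was at 314, 253 and 274 CPM in the control and 602, 440.5 and 460.2 CPM with siE8. All siE8 libraries were higher, at 0.84 ± 0.11 (adjusted p = 2.11e-05). KIF20A rose by 0.70 ± 0.037, AURKB by 0.66 ± 0.041, NUSAP1, a spindle microtubule stabiliser, by 0.62 ± 0.040, MAD2L1 by 0.58 ± 0.051 and FOXM1 by 0.44 ± 0.046. CDC20 rose by 0.48 ± 0.044 and cyclin B1 by 0.23 ± 0.048, while CDK1 (0.038 ± 0.044) and PLK1 (-0.055 ± 0.046) were not called.

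ANLN, which encodes anillin, the scaffold of the cleavage furrow, stood alone among the falls with siE8. It was at 235, 221 and 236 CPM in the control and 91.5, 90.3 and 91.1 CPM with siE8. That was a 2.53-fold drop with no overlap (-1.34 ± 0.036, adjusted p = 1.32e-11). TOP2A went from 792, 791 and 848 CPM to 527, 501 and 496 CPM. It changed by -0.67 ± 0.044 on the log2 scale, again without overlap (adjusted p = 3.09e-08). KIF2C changed by -0.52 ± 0.039, CENPE by -0.51 ± 0.062, CDC25C by -0.38 ± 0.056 and INCENP by -0.30 ± 0.047.

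**Figure D4:**
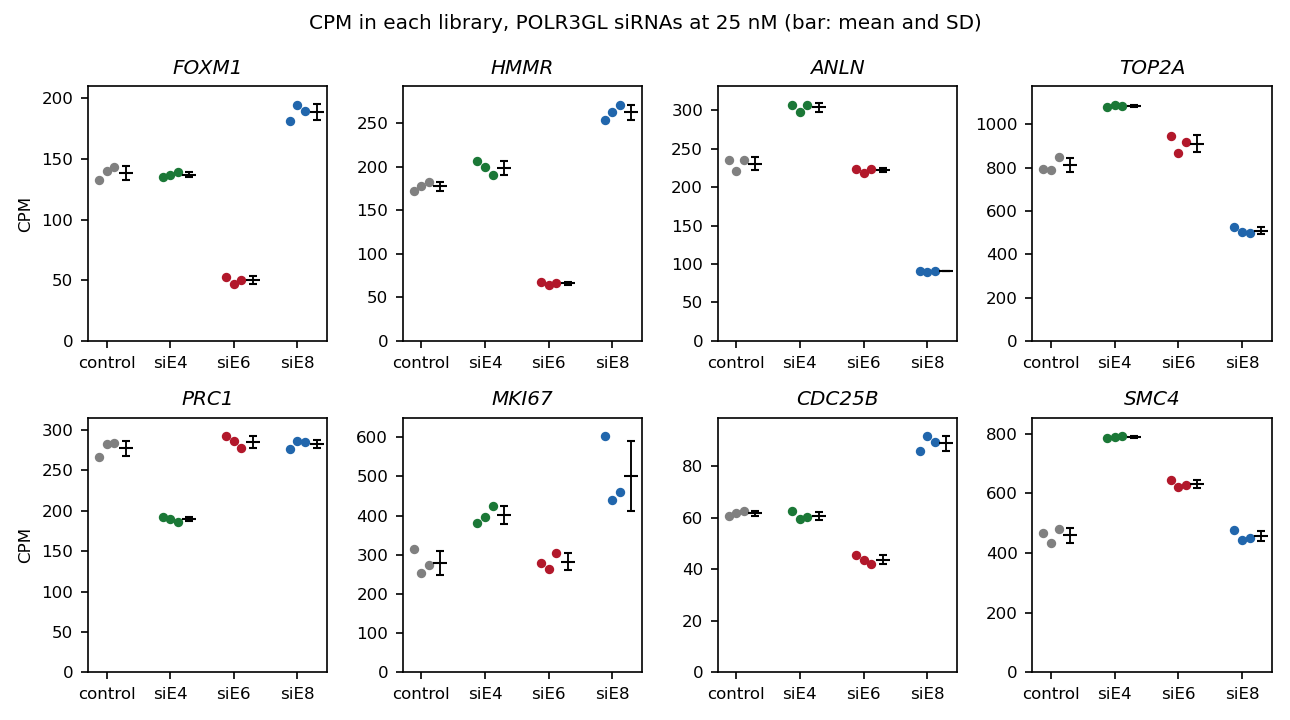
TMM-normalised CPM of FOXM1, HMMR, ANLN, TOP2A, PRC1, MKI67, CDC25B and SMC4 in each library of the 25 nM control siRNA, siE4, siE6 and siE8 groups (1 point per library), with the group mean and SD beside the points. FOXM1 and HMMR are low in the siE6 libraries, ANLN and TOP2A in the siE8 libraries and PRC1 in the siE4 libraries.

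Tested against each other, the 3 siRNAs to POLR3GL gave different levels of most members, as of most genes tested. For siE4 against siE6, 33 members were higher and 5 lower, where 32.2% of all genes tested were higher and 32.6% lower, with a median of 0.37. HMMR differed by 1.59 ± 0.043, FOXM1 by 1.45 ± 0.048 and INCENP by 0.86 ± 0.047, each higher with siE4, while PRC1 (-0.59 ± 0.036) and CDC20 (-0.42 ± 0.044) were higher with siE6. PLK1 was at 0.59, CDK1 at 0.51, MKI67 at 0.50, cyclin B1 at 0.45 and TOP2A at 0.25, all called higher with siE4. The calls on BUB3 (-0.24 ± 0.035) and GTSE1 (-0.12 ± 0.037) were lost with the length offset, at -0.050 and -0.024. For siE4 against siE8, 16 were higher and 18 lower, where 30.5% of all genes tested were higher and 32.4% lower, with a median of -0.03. ANLN differed by 1.74 ± 0.036 (adjusted p = 2.67e-12), TOP2A by 1.09 ± 0.044, CENPE by 0.79 ± 0.063 and SMC4 by 0.79 ± 0.044, all higher with siE4. MAD2L1 (-0.64 ± 0.051) and AURKB (-0.61 ± 0.041) were higher with siE8, as was CDC20 (-0.35). CDK1 (0.46) and PLK1 (0.28) were higher with siE4, and cyclin B1 (0.024) was not called. MKI67 was at -0.32 ± 0.11, and its call was lost without siE4 library 1, siE4 library 2 or siE8 library 1 (-0.17 without the last, with adjusted p 0.00718 to 0.0981 over the fits that leave out 1 library). For siE6 against siE8, 8 were higher and 29 lower, where 32.1% of all genes tested were higher and 32.1% lower, with a median of -0.29. HMMR differed by -1.99 ± 0.043 (adjusted p = 2.53e-12), FOXM1 by -1.91 ± 0.048, CDC25B by -1.02 ± 0.042 and MAD2L1 by -1.02 ± 0.051, all higher with siE8, and ANLN by 1.29 ± 0.036. MKI67 (-0.82), cyclin B1 (-0.42) and PLK1 (-0.31) were also higher with siE8, and TOP2A (0.84) with siE6. CDK1 (-0.051) and CDC20 (0.070) were not called, though CDK1 was with scaling by totals (-0.13) and CDC20 with protein-coding transcripts alone (0.091).

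Set side by side, CDC25C was at -0.17 with the POLR3G ASO, -0.43 with the POLR3G siRNA, -0.17 with siE4, -0.42 with siE6 and -0.38 with siE8. The last 3 share their controls, and the siE4 value is the one whose groups overlapped and whose call was lost in 4 of the 6 fits that leave out 1 library.

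Overexpression of MAF1 left no member called. The counts were 0 higher and 0 lower by edgeR, where 0.0322% of the 15543 genes tested were called higher and 0.00643% lower. At an unadjusted p under 0.05, 2 members were higher and 1 lower, and DESeq2 called 0 higher and 1, BUB3, lower. For neither of these was a share over all genes taken. Log2 fold changes of the members ran from -0.12 to 0.11 with a median of 0.0081, against 0.0032 over all genes, and SEs of 0.023 to 0.055. Cyclin B1 was at 226, 229 and 222 CPM with eGFP and 228, 226 and 219.9 CPM with MAF1. TOP2A was at 876, 875 and 875 CPM with eGFP and 917, 893 and 874 CPM with MAF1. Both overlapped between groups, at -0.0056 ± 0.026 for cyclin B1 and 0.031 ± 0.027 for TOP2A. CDK1 was at 0.074 ± 0.039, PLK1 at -0.0036 ± 0.027, CDC20 at -0.061 ± 0.034 and MKI67 at 0.027 ± 0.051. MAF1 library 1 had 12 members below the eGFP mean, library 2 had 22 and library 3 had 30, counts not taken over all genes.

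In THP-1, spindle genes fell by small amounts with ML-60218. Of the 45 members, 18 were called lower and 0 higher by edgeR, where 7.05% of the 15327 genes tested were called lower and 8.48% higher. At an unadjusted p under 0.05, 1 was higher, and DESeq2 called 0 higher, without shares over all genes. The members' median was -0.09 against -0.0086 over all genes. Of the motors and spindle group 10 of 13 were lower, and of the other groups no more than 3 each. The ML-60218 libraries had 37, 36 and 33 members below the DMSO mean, and DMSO library 3 itself had 34 below. These counts were not taken over all genes.

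NUSAP1 fell most with ML-60218. It was at 121, 132 and 117 CPM with DMSO and 99.8, 97.7 and 106 CPM with ML-60218. Its groups did not overlap, at -0.29 ± 0.045 (adjusted p = 9.37e-04). KIF20A was at 62.8, 62.5 and 58.3 CPM and 52.4, 50.3 and 50.4 CPM. It was lower in all 3 treated libraries, at -0.26 ± 0.042 (adjusted p = 0.00113). BUB1 changed by -0.22 ± 0.047, BIRC5 by -0.20 ± 0.030, KIF4A by -0.20 ± 0.031, DLGAP5, a spindle assembly protein, by -0.20 ± 0.043, HMMR by -0.19 ± 0.035 and TOP2A by -0.16 ± 0.027. Cyclin B1 (-0.041 ± 0.033), CDK1 (-0.082 ± 0.041), PLK1 (0.042 ± 0.042), CDC20 (0.015 ± 0.038) and MKI67 (-0.053 ± 0.071) were not called. CDC20 was at -0.0028 with scaling by totals.

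Cycloheximide moved genes in both directions, the members among them. Of the 45, 19 were higher and 16 lower, where 33.5% of all genes tested were higher and 32.5% lower, and the median was 0.06 against -0.0056 over all genes. The split depended on the setting: library totals gave 27 higher and 8 lower, or 77.1% of the called members higher in place of 54.3%. With totals the median over all genes also rose, to 0.13, and the members' median was 0.20. The length offset gave 15 higher and 17 lower, or 46.9% higher, with a members' median of -0.040. Of the motors and spindle group 8 of 13 were higher, and of the checkpoint and APC/C group 4 of 6 were lower and none higher. The summed level was 2881 ± 53.8 TPM with DMSO and 3667 ± 31.0 TPM with CHX.

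KIF20B rose most with CHX. It was at 69.1, 68.8 and 69.7 CPM with DMSO and 101, 102 and 104 CPM with CHX. There was no overlap, at 0.57 ± 0.044 (adjusted p = 1.07e-07). KIF20A rose by 0.54 ± 0.041, CENPE by 0.52 ± 0.069, HMMR by 0.41 ± 0.034, Aurora A (AURKA) by 0.40 ± 0.034, and KIF11 and SMC4 by 0.37 ± 0.092 and 0.37 ± 0.025. In the other direction CENPA, the histone variant that marks centromeres, was at 16.4, 18.0 and 16.0 CPM with DMSO and 11.0, 10.9 and 11.0 CPM with CHX. It fell without overlap, at -0.62 ± 0.054 (adjusted p = 3.75e-07). FOXM1 changed by -0.50 ± 0.036, INCENP by -0.46 ± 0.036, cyclin A2 by -0.44 ± 0.036, KIF23 by -0.32 ± 0.045, BUB3 by -0.32 ± 0.036 and ANLN by -0.27 ± 0.022. Scaling by totals gave -0.19 for KIF23, -0.18 for BUB3 and -0.14 for ANLN.

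Several of the smaller CHX calls rested on the scaling or on 1 library. Cyclin B1 was called at -0.10 ± 0.033, and lost its call without CHX library 3, DMSO library 1 or DMSO library 2 (adjusted p 0.00532 to 0.0790 over the fits that leave out 1 library) and turned to 0.036 with scaling by totals. CDK1 was called at -0.13 ± 0.041, lost its call without CHX library 1 (adjusted p 0.00584 to 0.0741 over the same kind of fits) and was at 0.0012 with totals. PLK1 (-0.22 ± 0.043) and TOP2A (-0.14 ± 0.027) were not called with totals (adjusted p over the alternatives 3.18e-05 to 0.0743 and 3.79e-06 to 0.875). CDC20 (0.062 ± 0.038) and MKI67 (0.065 ± 0.071) were not called, but with totals both were called higher, at 0.20 each.

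When ML-60218 was added to CHX, 11 members were called. Against CHX alone, 9 were lower and 2 higher, where 7.75% of all genes tested were lower and 8.75% higher, and the median was -0.09 against -0.0048 over all genes. The members called lower came to 19 with scaling by totals and 15 with the 5 CPM filter. These comparisons share libraries with those above, so the values are set side by side. KIF20A was at 90.6, 86.9 and 88.9 CPM with CHX and 72.0, 65.8 and 66.1 CPM with both agents. It was lower without overlap, at -0.39 ± 0.040 (adjusted p = 6.24e-05). GTSE1 changed by -0.24 ± 0.030 and INCENP by -0.20 ± 0.037, of which INCENP was not called with the length offset (adjusted p over the alternatives 7.53e-04 to 0.164). The 2 rises were HMGB2 and CDC20. HMGB2 was at 648, 669 and 662 CPM with CHX and 818, 940.2 and 893 CPM with both agents. It did not overlap, at 0.42 ± 0.042 (adjusted p = 4.22e-05), and CDC20 rose by 0.19 ± 0.038. Cyclin B1 (-0.081 ± 0.033), CDK1 (0.072 ± 0.041), PLK1 (-0.068 ± 0.043), TOP2A (-0.014 ± 0.027) and MKI67 (-0.079 ± 0.071) were not called, and cyclin B1 was called at -0.11 with scaling by totals.

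The smaller falls with both agents hung on single libraries. KIF23, a motor of the central spindle, was at -0.18 ± 0.046 and lost its call without CHX library 1, CHX library 3 or combined library 2 (adjusted p 0.00496 to 0.103 over the fits that leave out 1 library). Cyclin B2, at -0.15 ± 0.037, lost it without CHX library 1 or combined library 2 (adjusted p 0.0139 to 0.0587). NCAPD2, at -0.13 ± 0.036, lost it without CHX library 1 or 3 or combined library 1 or 3, and with the length offset (adjusted p over the alternatives 0.00544 to 0.145). The count of members lower ran from 3 to 10 over the fits that leave out 1 library.

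**Figure D5:**
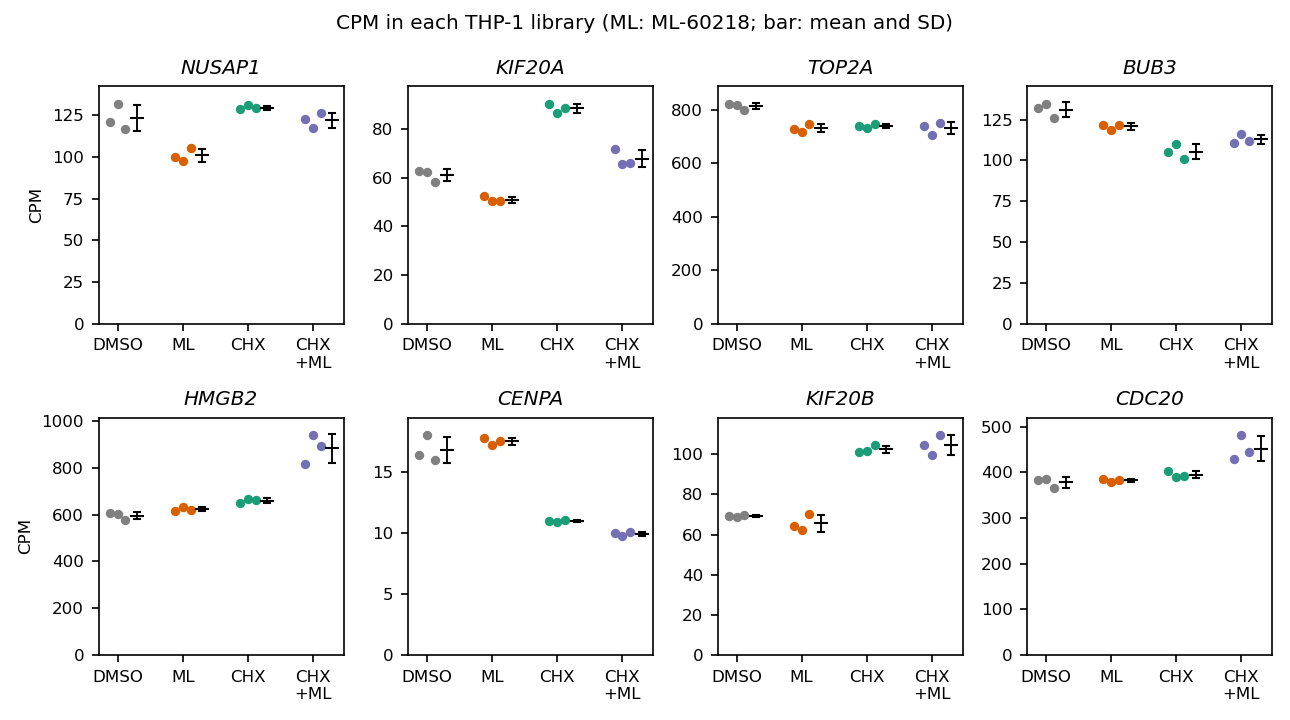
TMM-normalised CPM of NUSAP1, KIF20A, TOP2A, BUB3, HMGB2, CENPA, KIF20B and CDC20 in each THP-1 library with DMSO, ML-60218, CHX or both agents (1 point per library), with the group mean and SD beside the points. KIF20A is lower with ML-60218 than without it both alone (-0.26) and on CHX (-0.39), and HMGB2 is highest with both agents.

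Whether the ML-60218 effect differed with and without CHX was tested as an interaction over the 12 THP-1 libraries. It was above 0 for 4 members and below 0 for 0 by edgeR, where 2.86% of all genes tested were called above 0 and 3.7% below. At an unadjusted p under 0.05, 3 were below 0, and DESeq2 called 0 below and 7 above, without shares over all genes. HMGB2 had an interaction of 0.36 ± 0.059 (adjusted p = 0.00505). Its ML-60218 effect was 0.065 alone and 0.42 on CHX. KIF4A followed at 0.23 ± 0.044, BUB3 at 0.22 ± 0.051 and TOP2A at 0.14 ± 0.039. These 3 had ML-60218 effects of -0.20, -0.12 and -0.16 alone and 0.033, 0.10 and -0.014 on CHX. KIF4A and BUB3 were not called with the length offset, and BUB3 not without DMSO library 1, DMSO library 2 or ML-60218 library 2 (adjusted p over the alternatives 0.00182 to 0.0790 for KIF4A and 0.00145 to 0.577 for BUB3). TOP2A (adjusted p = 0.0488) lost its call in 9 of the 12 fits that leave out 1 library, the exceptions being those without combined library 2, DMSO library 3 and ML-60218 library 3 (adjusted p 0.0132 to 0.121), and also with totals, with no filter, with the length offset and with a replicate block (adjusted p over all the alternatives 0.00496 to 0.121). For KIF20A the interaction was -0.12 ± 0.058 and was not called (adjusted p = 0.257). Nor were cyclin B1 (-0.040), CDK1 (0.15), PLK1 (-0.11), CDC20 (0.18) and MKI67 (-0.026), of which CDC20 was called with DESeq2, without combined library 1 and without DMSO library 3.

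Other cell cycle genes were counted from 7 further lists, each given with its median log2 fold change. Over all genes tested, the shares called higher and lower were 34.4% and 34.1% with the ASO, 36.8% and 38.1% with the POLR3G siRNA, 26.2% and 28.7% with siE4, 31.2% and 31.8% with siE6, 29.1% and 28.6% with siE8, 8.48% and 7.05% with ML-60218, and 33.5% and 32.5% with CHX. With MAF1 no gene of these lists was called by edgeR, and with ML-60218 on CHX no list had more than 3 genes higher or 6 lower. The G1/S and replication list held 31 genes that act before and during S phase. With the POLR3G ASO 5 were higher and 19 lower of 31 tested (median -0.15), and GINS4, a replicative helicase subunit, went from 112 ± 2.29 to 68.2 ± 2.51 CPM (SD, n = 3 in each group here and below). With the POLR3G siRNA 9 were higher and 13 lower of 31 tested (median 0.0086). With siE8 26 were higher and 1 lower of 31 tested (median 0.38), among them E2F1, the S phase transcription factor, from 39.0 ± 2.79 to 73.9 ± 2.48 CPM. With siE4 13 were higher and 8 lower of 31 tested (median 0.039), and with siE6 14 were higher and 6 lower of 31 tested (median 0.092). In THP-1, ML-60218 left 0 higher and 11 lower of 31 tested (median -0.12), led by MCM7 (-0.16), MCM3 (-0.16) and MCM4 (-0.17) of the helicase. CHX left 3 higher and 25 lower of 31 tested (median -0.55), with CCNE2 (cyclin E2) going from 66.2 ± 1.05 to 4.34 ± 0.330 CPM.

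The list of MuvB, DREAM and NF-Y subunits held 15 genes. With siE6 7 were higher and 6 lower of 15 tested (median 0.17). MYBL2, which encodes B-MYB, was among the siE6 falls, from 248 ± 15.8 to 83.5 ± 4.46 CPM (-1.57 ± 0.057, adjusted p = 1.73e-10). With the ASO 3 were higher and 8 lower of 15 tested (median -0.16), and RBL2 (p130), the pocket protein of DREAM, went from 108 ± 2.92 to 74.6 ± 0.962 CPM. The POLR3G siRNA gave 8 higher and 5 lower of 15 tested (median 0.11), siE4 6 higher and 5 lower of 15 tested (median -0.056), siE8 9 higher and 2 lower of 15 tested (median 0.32), CHX 4 higher and 8 lower of 15 tested (median -0.17) and ML-60218 0 higher and 4 lower of 15 tested (median -0.024). RBBP4, a histone-binding subunit of MuvB, was at -0.23 with the ASO, 0.85 with the POLR3G siRNA, and 0.41, 0.55 and 0.49 with siE4, siE6 and siE8.

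The list of CDK inhibitors and arrest genes held 12 genes, not all of which were expressed enough to be tested. With the ASO 7 were higher and 0 lower of 12 tested (median 0.16). CDKN2B, the CDK4 and CDK6 inhibitor p15, went from 21.7 ± 0.643 to 53.8 ± 0.596 CPM and CDKN1B (p27) from 57.8 ± 0.200 to 101 ± 5.53 CPM. With the POLR3G siRNA 4 were higher and 4 lower of 11 tested (median 0.00038), with CDKN1B at 149 ± 4.44 CPM against 66.9 ± 1.49 CPM in the control. The list came to 8 higher and 1 lower of 12 tested (median 0.20) with siE4, 6 higher and 3 lower of 12 tested (median 0.23) with siE6 and 4 higher and 4 lower of 12 tested (median 0.077) with siE8. Among its rises, CDKN1A (p21) was at 90.9 ± 3.03 CPM with siE6, 56.8 ± 1.28 CPM with siE4 and 50.4 ± 3.38 CPM with siE8, against 35.2 ± 2.50 CPM in their control. In THP-1, CHX gave 6 higher and 1 lower of 9 tested (median 0.67), led by GADD45A from 36.2 ± 1.06 to 104 ± 3.38 CPM, and ML-60218 gave 3 higher and 2 lower of 9 tested (median 0.060).

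The other kinetochore, cohesin and condensin, mitotic and APC/C lists held 22, 17, 25 and 17 genes. Of the kinetochore genes the ASO gave 3 higher and 14 lower of 22 tested (median -0.18), the POLR3G siRNA 11 higher and 7 lower of 22 tested (median 0.070), siE4 11 higher and 4 lower of 22 tested (median 0.13), siE6 8 higher and 8 lower of 22 tested (median -0.057), siE8 13 higher and 2 lower of 22 tested (median 0.20), CHX 10 higher and 7 lower of 22 tested (median 0.11) and ML-60218 1 higher and 3 lower of 22 tested (median -0.082). Cohesin and condensin genes came to 6 higher and 6 lower of 17 tested (median -0.024) with the ASO, 13 higher and 2 lower of 17 tested (median 0.30) with the POLR3G siRNA, 13 higher and 1 lower of 17 tested (median 0.34) with siE4, 7 higher and 4 lower of 17 tested (median 0.041) with siE6, 13 higher and 1 lower of 17 tested (median 0.33) with siE8, 9 higher and 5 lower of 17 tested (median 0.12) with CHX and 1 higher and 4 lower of 17 tested (median -0.045) with ML-60218. Within the other mitotic genes the ASO gave 3 higher and 13 lower of 24 tested (median -0.084), the POLR3G siRNA 14 higher and 7 lower of 24 tested (median 0.14), CHX 5 higher and 16 lower of 24 tested (median -0.20) and ML-60218 0 higher and 4 lower of 24 tested (median -0.063). In the same list siE4 gave 18 higher and 2 lower of 24 tested (median 0.29), siE6 8 higher and 9 lower of 24 tested (median 0.045) and siE8 15 higher and 3 lower of 24 tested (median 0.24). MELK, a kinase of mitotic cells, was among the siE8 falls of that list, from 122 ± 2.69 to 37.9 ± 1.45 CPM. APC/C genes came to 7 higher and 5 lower of 17 tested (median 0.052) with the ASO, 11 higher and 4 lower of 17 tested (median 0.19) with the POLR3G siRNA, 9 higher and 5 lower of 17 tested (median 0.12) with siE4, 10 higher and 3 lower of 17 tested (median 0.13) with siE6, 8 higher and 6 lower of 17 tested (median 0.11) with siE8, 0 higher and 2 lower of 17 tested (median -0.0065) with ML-60218 and 7 higher and 7 lower of 17 tested (median -0.068) with CHX. CDC26, a small APC/C subunit, was higher by 1.71 with the POLR3G siRNA and by 1.31, 1.43 and 1.46 with siE4, siE6 and siE8. With the ASO the highest value of any gene in that list was 0.32.

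Gene sums add all annotated transcripts, so the share of a gene's reads on protein-coding transcripts was also taken. It stayed above 90% in every group for 36 of the 45 members. MAD2L1 was the lowest, at 53.1% ± 0.758 (SD, n = 3) with the 200 nM control siRNA and 52.8% ± 0.719 with the POLR3G siRNA, where its sum rose. With siE6 its share was 48.5% ± 1.06, against 55.0% ± 1.40 in the 25 nM control. SMC4 had 85.1% ± 0.689 with the 200 nM control siRNA and 91.4% ± 0.525 with the POLR3G siRNA. AURKB moved furthest with CHX, from 75.7% ± 1.71 with DMSO to 91.4% ± 2.74. BUB1 went from 93.4% ± 0.0316 with the scrambled ASO to 83.1% ± 4.24 with the ASO. These shares come from Salmon's division of reads among transcripts and were not tested.

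Responses were also set beside the promoter letters, as a description. With siE6 the 26 members with CHR letters were 8 higher and 9 lower (median 0.0012), and the 11 with a window and no CHR letters were 1 higher and 9 lower (median -0.28). With the POLR3G siRNA the counts were 21 higher and 4 lower (median 0.32) with CHR letters and 7 and 3 (median 0.14) without. With ML-60218 they were 0 higher and 12 lower with CHR letters and 0 and 3 without, and the medians were -0.099 and -0.093. With the ASO 3 were higher and 18 lower with CHR letters (median -0.20), and 2 and 9 without (median -0.165). With siE4 the counts were 20 higher and 2 lower (median 0.30) and 5 and 2 (median 0.10), and with siE8 14 higher and 4 lower (median 0.20) and 7 and 3 (median 0.16). With CHX they were 10 higher and 9 lower (median 0.063) with CHR letters and 6 and 4 (median 0.104) without, and with ML-60218 on CHX 1 higher and 5 lower (median -0.070) and 0 and 3 (median -0.114). The shares over all genes are those given above for each comparison, and the difference between members with and without the letters was not tested.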

How the data were processed

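RNA of 42 libraries (14 groups of 3) was analysed from per-transcript Salmon tables with the deposited estimated counts and TPM, which are not whole numbers. Per the submitters' processing notes the tools were bcl2fastq 2.20, Trim Galore, Salmon and DESeq2 with build hg38. Versions of the other tools and the annotation release were not given in the sources used here. Libraries were, per the labels' protocols, stranded poly(A) libraries sequenced as paired ends. Of 194142 transcripts, 158359 (81.6%) matched GENCODE 29 without version numbers and carried 91.1% of the reads. The unmatched share per library was 8.06% to 9.54%. Gene values are sums of the authors' estimated counts over matched transcripts, brought to the nearest whole number. TPM values, as deposited by the authors, were summed per gene and used to compare levels between genes or experiments. In places they were also used to set treated groups beside their own controls. No test was run on the TPM values themselves.

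Each experiment was fitted by itself in edgeR 4.0.16 (R 4.3.3) with filterByExpr, TMM normalisation, the quasi-likelihood test and Benjamini-Hochberg adjustment over all genes tested, at a threshold of 0.05. The 3 POLR3GL siRNAs shared a fit with their control, as did the 4 THP-1 groups, and the difference between ASO and siRNA used 12 libraries. The SE is the log2 fold change divided by the square root of F. The code was tested on simulated data. Alternatives were DESeq2 1.42.0 (Wald test or size factors), library totals in place of TMM, no filter, a filter at a mean of 5 CPM, an offset for mean transcript length, protein-coding transcripts only, a replicate block, all HEK293T libraries in 1 fit, a threshold of 0.01, and leaving out each library in turn. Tables were handled in Python 3.11.15 with pandas 2.3.3 and numpy 2.4.6, and figures were drawn with matplotlib 3.10.9. Depth was 3.27e+07 to 5.26e+07 reads per library. The parts of a member's SE that came from counting and from the spread between libraries were not separated.

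The members and lists were chosen with earlier results of these data known. In every comparison CCNB1, CDK1, PLK1, CDC20, TOP2A and MKI67 were named. Other names were drawn from up to 6 called members each with the largest rise, the largest fall and the smallest adjusted p at a mean of at least 5 CPM, and up to 3 called genes of each other list by adjusted p, and not all of these are given. Values of further members, set side by side with these, were chosen after they were seen. Promoters shown were up to 4 members with both motifs and the most calls, and 1 without a CHR match.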

Additional observations from a re-analysis of the deposited data

Results flagged for a closer look

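The effect of the POLR3G ASO differed from that of the POLR3G siRNA by the test of the difference itself (edgeR, ASO effect minus siRNA effect, log2) for all 6 of the fixed members and for 8 further named ones. The 8 were named because this same test called them, so their calls were fixed by that choice. Of all genes tested, 33% were called lower and 33.8% higher in this difference. The differences were -0.40 for CCNB1, -0.31 for CDK1, -0.50 for PLK1, -0.37 for CDC20, -0.84 for TOP2A and -0.22 for MKI67. They were -1.30 for KIF11, -1.14 for INCENP, -0.99 for KIF4A, -0.84 for MAD2L1, -0.84 for UBE2C and -0.73 for TPX2. FOXM1 (0.31) and CDC25C (0.23) differed in the other direction. Of these, MKI67 was not called with scaling by library totals, with a 5 CPM filter or with all HEK293T libraries in 1 fit, and CDC25C was not called with the length offset.

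The effect of ML-60218 in THP-1 differed with and without CHX, by the interaction term in edgeR, for HMGB2 (0.36), KIF4A (0.23), BUB3 (0.22) and TOP2A (0.14). Of all genes tested, 2.86% were called above 0 and 3.7% below. Of these 4, HMGB2 was called at an adjusted p under 0.01, and DESeq2 called 7 members above 0. TOP2A (adjusted p = 0.0488 by edgeR, 0.00496 to 0.121 over the alternatives) lost its call in 14 of 21 alternatives, among them 9 of the 12 fits that leave out 1 library. BUB3 lost it in 5, among them the length offset, and KIF4A in 2, with the length offset and at a threshold of 0.01.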

How the results depend on the processing

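Of the alternative values computed for named members, 3339 kept their direction and their side of the threshold, 90 lost their call, 9 gained one and 38 changed sign. Of the counts of called members, 440 stayed within 1.5 times the reported count and 24 did not.

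These values changed sign, among them the called changes of ECT2 (-0.30) and CCNB1 with the ASO and of CCNB1 and CDK1 with CHX. With scaling by library totals CCNB1 was at 0.012 with the ASO, -0.051 for siE4 against siE8 and 0.036 with CHX, CDC20 was at 0.045 with the ASO, -0.010 for siE6 against siE8 and -0.0028 with ML-60218, CDK1 was at 0.0012 with CHX, and MKI67 at -0.085 with siE6. The 5 CPM filter gave 0.012 for CCNB1 and 0.045 for CDC20 with the ASO and -0.023 for MKI67 with siE6. The length offset gave 0.012 for ECT2 with the ASO, -0.012 for MKI67 with siE6 and 0.0021 for CCNB1 with MAF1. Protein-coding transcripts alone gave 0.024 for CDC20 with the ASO and 0.0080 for PLK1 with MAF1.

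Counts moved as follows. With scaling by totals, siE4 had 8 lower, siE6 7 higher, CHX 8 lower, ML-60218 on CHX 19 lower, and the ASO minus siRNA difference 7 higher. With the 5 CPM filter ML-60218 on CHX had 15 lower and the ASO minus siRNA difference 5 higher. The length offset gave 2 lower for siE4 against siE6, 1 above 0 for the interaction and 1 higher for the ASO minus siRNA difference, and protein-coding transcripts alone gave 1 below 0 for the interaction and 4 higher for that difference. DESeq2 gave 1 lower with MAF1 and 7 above 0 for the interaction, all HEK293T libraries in 1 fit gave 5 lower with the POLR3G siRNA, and a threshold of 0.01 gave 3 lower for ML-60218 on CHX and 1 above 0 for the interaction. That threshold left 2 higher and 3 lower for ML-60218 on CHX. The cause was not tested beyond the fewer genes called by the stricter threshold. Scaling by totals moved the median of all genes by -0.11 for the POLR3G siRNA, 0.13 for CHX and 0.22 for the ASO minus siRNA difference.

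Leaving out 1 library at a time gave -0.057 to 0.0031 for CDC20 with the ASO, -0.040 to 0.0098 for CDK1 and -0.053 to 0.10 for MKI67 with siE6, and -0.023 to 0.061 for CCNB1 in siE4 against siE8. With MAF1 it gave -0.017 to 0.010 for CCNB1, -0.018 to 0.012 for PLK1 and -0.027 to 0.075 for MKI67, and with ML-60218 -0.010 to 0.031 for CDC20 and -0.11 to 0.032 for MKI67. For ML-60218 on CHX it gave 3 to 10 members lower and -0.030 to 0.021 for TOP2A, and for the interaction 2 to 7 above 0, 0 to 1 below 0 and -0.11 to 0.033 for MKI67. For ML-60218 on CHX the counts were 2 higher and 3 lower without CHX library 1 and 2 higher and 5 lower without combined library 2. For the interaction they were 3 above 0 and 1 below 0 without CHX library 2.

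Replicate numbers are shared between groups. Libraries with the same number did not deviate together (correlations of -0.14 to 0.14), so the numbers were not taken to pair them. With a replicate block the counts were 6 higher and 32 lower with the ASO, 34 and 9 with the POLR3G siRNA, 30 and 4, 12 and 21, and 28 and 7 with siE4, siE6 and siE8, 0 and 18 with ML-60218, 19 and 14 with CHX, 2 and 10 with ML-60218 on CHX, 2 and 38 for the ASO minus siRNA difference, and 4 above 0 and 0 below 0 in the interaction. Among named members the block ended only the interaction call on TOP2A (adjusted p = 0.0562 by edgeR, over alternatives 0.00496 to 0.121). Every member passed the count filter, which does not measure precision, and 3 libraries a group limit the precision.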
